A study of Mus musculus with 78 samples.

Results

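Carboxylesterases are serine hydrolases of the endoplasmic reticulum and of plasma that split esters, amides and thioesters. The genes described here are 10 mouse carboxylesterases, Ces1c, Ces1d, Ces1e, Ces1f, Ces1g, Ces2a, Ces2c, Ces2e, Ces2g and Ces3a. They were taken by symbol from count tables of 24499 genes, in which 19 symbols begin with Ces. The symbols were chosen by name with earlier results of these data known, so every test below describes these genes and none is a check of the choice. Libraries were selected on their counts in genes, the only measured value in the rule, and those under 1000000 were left out. The lowest library used held 8556278 counts and the 5 left out held 2267 to 22029.

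The libraries came from kidneys of male C57BL/6J mice kept for 8 weeks on 1 of 3 diets, and the series title asks whether fatty liver and steatohepatitis change what tetrachloroethylene (PERC), a chlorinated solvent, does to the kidney. The diets were a low-fat diet (LFD, 4% fat), a high-fat diet (HFD, 31% fat) and a diet lacking methionine, choline and folate (MCD). PERC was given at 300 mg/kg per day in 5% Alkamuls-EL620 in saline, either once, with death at 24 h, or on 5 days, with death 4 h after the last dose. Vehicle mice received the carrier alone, and no source used here says when single-regimen vehicle mice were killed, which may differ from the PERC mice. The single regimen gave 9 usable LFD libraries (PERC 4, vehicle 5), 9 from HFD mice (PERC 5, vehicle 4) and 7 from MCD mice (PERC 4, vehicle 3). The repeated regimen gave 16 from LFD mice (PERC 9, vehicle 7), 16 from HFD mice (PERC 8, vehicle 8) and 15 from MCD mice (PERC 8, vehicle 7). The regimens were sequenced on separate lanes, so regimen and lane cannot be told apart. No label ties a library to its own mouse, so the p-values measure spread among libraries, part of which may be technical.

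In the liver, carboxylesterases clear ester drugs and toxicants, and several of them also act on neutral lipid: some mobilise stored triacylglycerol for secretion. The Ces1 proteins carry signals that hold most of them inside the endoplasmic reticulum, while some members lack them and are secreted. The kidney proximal tubule, which takes up and metabolises many organic compounds, is another site where such hydrolases are known to be expressed.

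Kidney identity was clear in all 72 libraries. Umod, the uromodulin gene of the thick ascending limb, stood at 3463 to 5884 CPM, and Lrp2, the megalin gene of the proximal tubule, at 1774 to 4260. CPM are counts per 1000000 counts in genes that passed the low-count filter, with library totals scaled by TMM (trimmed mean of M-values). Cyp11b1, which defines adrenal cortex, was at 0 in every library. The other adrenal cortex markers were at most 0.923 CPM, apart from Star at 3.72 to 9.71 CPM. Medians of the 12 hepatocyte markers ran from 0 CPM for Mup3 and Tat to 110 for Ttr and 2086 for Cyp2e1. Mup3, a major urinary protein gene of liver, exceeded 1 CPM in 5 libraries. These were LFD repeated vehicle replicate 5 (7.13 CPM), HFD repeated vehicle replicate 4, LFD single vehicle replicate 5, LFD repeated PERC replicate 9 and HFD single PERC replicate 3. Albumin (Alb) was 30.7 to 86.6 CPM in these 5 libraries and 6.46 to 41.9 CPM in the other 67. LFD repeated PERC replicate 4 held 1.83 CPM of Havcr1, the kidney injury molecule, where the other 8 PERC libraries of its group held 13.7 to 199 and the vehicle libraries 1.78 to 2.62. The labels put 9 LFD libraries in the PERC and 7 in the vehicle group of the repeated regimen, whereas the design text gives 8 mice for each. Whether the library labelled PERC replicate 4 is a PERC library was not tested, and this touches every LFD value after 5 doses. Without it the same 4 members were called: Ces1g gave -2.06 in place of -1.76, Ces1f -0.54 in place of -0.47, Ces2e 0.48 in place of 0.46 and Ces1c -1.63 in place of -1.67. MCD repeated PERC replicate 6 also held little Havcr1, 1.71 CPM, where the other 7 PERC libraries held 10.3 to 48.4 and the MCD vehicle libraries 1.11 to 1.68. Without that library Ces1e, Ces1f and Ces1g were still called on MCD and Ces2g was not (adjusted p = 0.100).

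All 10 genes lie on chromosome 8 in a pair of clusters (GRCm38, GENCODE vM21 annotation). The Ces1 genes are on the minus strand from Ces1c (chr8:93099015-93131283) over Ces1d (chr8:93166068-93197838), Ces1e (chr8:93201218-93229619) and Ces1f (chr8:93256236-93279747) to Ces1g (chr8:93302369-93337308). The Ces2 and Ces3 genes are on the plus strand from Ces2a (chr8:104734003-104741634) over Ces2c (chr8:104847068-104854483), Ces2e (chr8:104926260-104934672) and Ces2g (chr8:104961718-104969537) to Ces3a (chr8:105048601-105058413). Coding sequences were alike among Ces1 and among Ces2 genes: Ces2c and Ces2g matched at 85.7% of aligned bases, Ces1d and Ces1g at 81.5%. Ces1f and Ces1g matched at 74.6%, and Ces1f and Ces2c, of separate clusters, at 63.7%. Some members were closer to other Ces symbols: Ces3a to Ces3b (95.3%), Ces2c to Ces2b (92.1%) and Ces1c to Ces1b (91.1%). Of all 50-base windows of Ces2c transcripts, 34.3% occurred in another Ces gene, most of them in the pseudogene Ces2d-ps. The share was 25.6% for Ces3a and 10.2% for Ces1c, and at most 3.3% for the other 7 genes. By this measure the assignment of reads is least certain for Ces2c, Ces3a and Ces1c. Ces1d overlaps Gm45909 on its own strand and Ces3a overlaps Gm45724 on the other strand, and no source used here gives the strand setting of the counting, so reads of either pair could be mixed.

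Because several Ces1 genes were lower and Ces2e was higher after PERC, the 250 bases before the RefSeq start are shown for 3 Ces1 genes and for Ces2e (GRCm38.p6, each 5′ to 3′ on the gene's strand). Capitals mark matches to motifs. The intervals are chr8:93131284-93131533 (minus) for Ces1c, chr8:93229620-93229869 (minus) for Ces1e, chr8:93337210-93337459 (minus) for Ces1g and chr8:104926010-104926259 (plus) for Ces2e.
Ces1c: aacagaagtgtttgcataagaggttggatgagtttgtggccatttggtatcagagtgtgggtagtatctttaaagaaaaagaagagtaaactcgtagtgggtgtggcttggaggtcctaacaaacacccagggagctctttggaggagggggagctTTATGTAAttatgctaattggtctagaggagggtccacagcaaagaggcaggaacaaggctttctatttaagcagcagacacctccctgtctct
Ces1e: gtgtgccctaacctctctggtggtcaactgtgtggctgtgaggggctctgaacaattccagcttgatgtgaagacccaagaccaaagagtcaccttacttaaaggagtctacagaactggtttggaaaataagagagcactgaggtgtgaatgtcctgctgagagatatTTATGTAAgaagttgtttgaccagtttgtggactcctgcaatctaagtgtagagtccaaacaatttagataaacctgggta
Ces1g: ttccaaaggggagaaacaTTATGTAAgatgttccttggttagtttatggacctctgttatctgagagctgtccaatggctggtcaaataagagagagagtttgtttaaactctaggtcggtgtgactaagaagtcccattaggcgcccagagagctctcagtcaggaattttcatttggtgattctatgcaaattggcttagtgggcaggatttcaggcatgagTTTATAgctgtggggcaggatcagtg
Ces2e: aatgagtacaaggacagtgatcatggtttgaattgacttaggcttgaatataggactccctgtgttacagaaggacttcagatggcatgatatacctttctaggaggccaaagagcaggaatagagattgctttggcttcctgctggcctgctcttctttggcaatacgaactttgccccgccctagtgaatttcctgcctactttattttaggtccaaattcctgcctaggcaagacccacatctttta

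Over 6 motifs searched on both strands, from 250 bases before to 50 bases after the start, the 7 genes with a promoter entry held matches to a pair of them. The D-box TTATGTAA, the element read by the circadian factors DBP, TEF and HLF, began 94 bases before the start of Ces1c, 81 before that of Ces1e and 232 before that of Ces1g. This motif was added after the sequences had been seen. It was found in all 3 Ces1 members with an entry and in none of Ces2a, Ces2c, Ces2e and Ces2g. Among the other 8 Ces symbols with an entry, Ces1a and Ces1b held it and Ces1h, also a Ces1 gene, did not. Of the 32851 RefSeq promoters of this length, 0.938% held it. Because the motif was chosen from these sequences, that share is not a test of its presence in them. The second motif was the TATA box TATAAA, which 13.6% of promoters held and which lay on the reverse strand of Ces1g, 26 bases before its start. No match was found in the 7 genes for the antioxidant response core TGACNNNGC (12.4% of promoters), the nuclear receptor repeats DR1 (0.0396%) and DR4 (0.0152%) or the ATF4 element TGATGCAA (0.895%). A match is only a stretch of letters, and no binding was measured. Ces1d, Ces1f and Ces3a had no entry.

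Ces1f and Ces1d carried most of the carboxylesterase messenger RNA of the kidney. Per kilobase of the longest coding transcript, the mean over 72 libraries was 450 CPM for Ces1f, an endoplasmic reticulum hydrolase of lipid esters, and 259 for Ces1d, the triacylglycerol hydrolase that mobilises stored fat in liver and fat tissue. These 2 genes made up 52.9% and 30.4% of the summed level per kilobase. Ces1e, or egasyn, which anchors beta-glucuronidase in the endoplasmic reticulum, stood at 60.7 CPM per kilobase and Ces2c, an acylglycerol and drug hydrolase, at 59.2. Next came Ces2e (8.69), Ces1g (8.67) and Ces2g (4.14). Ces1c, the main esterase of mouse plasma, stood at 0.194 CPM per kilobase and Ces3a, an esterase of male liver, at 0.162. Ces2a, which in liver is a target of the xenobiotic receptor CAR, had 49 reads over all 72 libraries and none in 45 of them. The group means of Ces1f and Ces1d overlapped each other but not those of any gene below them, whereas those of Ces1e and Ces2c did, as did those of Ces2e and Ces1g.

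**Figure D1:**
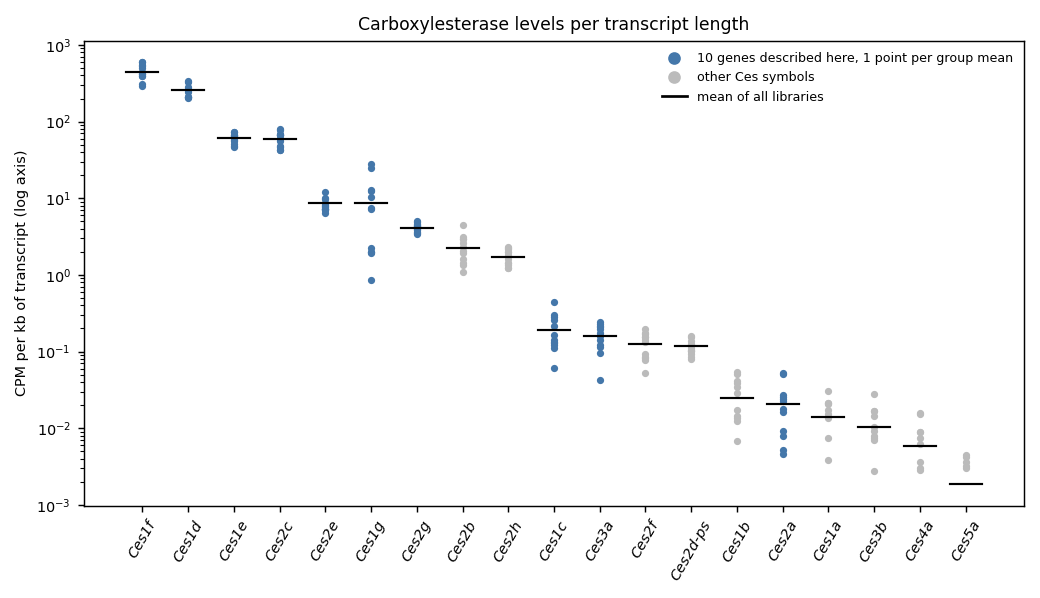
Level of the 19 carboxylesterase symbols as CPM per kilobase of transcript (log axis), with 1 point for each of 12 group means (means of 0 are not drawn) and a bar for the mean of all 72 libraries. Ces1f (450) and Ces1d (259) stand highest, and Ces1g has the widest spread between groups among the genes above 1 CPM per kilobase.

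Low counts removed Ces2a and Ces3a from the test after 5 doses, and Ces1c as well after a single dose. Calls below are adjusted p-values under 0.05 (Benjamini-Hochberg, over every gene tested) from edgeR's quasi-likelihood test. Because the tissue is whole kidney, fewer cells of a type and less RNA per cell cannot be told apart in any value below.

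After 5 doses of PERC, Ces1f was lower on all 3 diets, Ces1e and Ces1g were each lower on 2, and Ces2e was higher on 2. On LFD 4 of the 8 tested members were called (1 higher, 3 lower), where 6.91% of all 14614 genes were called, 4.48% higher and 2.43% lower. With only the LFD groups fitted the count was 1, Ces2e: Ces1f and Ces1g lost their calls and Ces1c did not pass the filter. HFD gave 4 of 8 (1 higher, 3 lower) against 9.18% of genes, 4.97% higher and 4.22% lower. MCD gave 4 of 8, all lower, against 5.1% of genes, 2.72% higher and 2.38% lower. The median log2 fold change of the 8 members was -0.10 on LFD, -0.51 on HFD and -0.46 on MCD, where the median of all genes was 0.000392, 0.00481 and 0.00606. The 3 comparisons use separate libraries but share an estimate of spread for each gene, from 1 fit over 6 groups. The summed level of all 10 members was 1547 ± 194 CPM (SD, n = 7) in vehicle and 1278 ± 211 (n = 9) in PERC libraries on LFD. The same sums were 2169 ± 143.02 (n = 8) and 1538 ± 227 (n = 8) on HFD, and 2153 ± 109 (n = 7) and 1538 ± 256 (n = 8) on MCD.

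Ces1g, a liver esterase tied to lipid secretion, had the lowest ratio of PERC to vehicle among the tested members on LFD and MCD. LFD vehicle libraries held 20.04, 56.3 and 112 CPM (lowest, median, highest) and LFD PERC libraries 2.83, 11.9 and 41.7. The groups overlapped, 6 of 9 PERC libraries lay below every vehicle library, and the highest PERC value was that of replicate 4. The log2 fold change was -1.76 ± 0.40 (SE, adjusted p = 0.00470), or -2.06 ± 0.41 (adjusted p = 0.000535) without that replicate. With only the LFD groups in the fit, edgeR gave -1.75 and an adjusted p of 0.0587, which ends the call.

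On MCD the separation of Ces1g was complete. Vehicle libraries held 17.8, 22.6 and 34.4 CPM and PERC libraries 0.567, 5.81 and 8.99, with all 8 PERC libraries below all 7 vehicle libraries. Ces1g fell by 2.21 ± 0.46 on the log2 scale (adjusted p = 0.00148) and kept its call with each of 15 libraries left out. On HFD, where vehicle levels were already low at 2.01, 3.68 and 10.03 CPM, PERC libraries held 0.190, 2.10 and 3.22 CPM. The groups overlapped and the difference of -1.23 ± 0.52 was not called (adjusted p = 0.139). The lowest Ces1g value of the series, 0.190 CPM, is 3 reads in HFD PERC replicate 6.

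Ces1f, the most abundant member, was lower with PERC on all 3 diets. LFD vehicle libraries held 653, 835 and 923 CPM and PERC libraries 350, 651 and 797, with overlap. HFD vehicle libraries held 1048, 1133 and 1323 CPM and PERC libraries 481, 784 and 857, with no overlap. MCD vehicle libraries held 1056, 1151 and 1268 CPM and PERC libraries 481, 738 and 984, again with no overlap. The calls were -0.47 ± 0.13 on LFD (adjusted p = 0.0170), -0.62 ± 0.13 on HFD (0.000694) and -0.63 ± 0.13 on MCD (0.00149), and none was lost with 1 library left out. The LFD call was lost when only the LFD groups were fitted (adjusted p = 0.0892).

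Ces1e, the beta-glucuronidase anchor, fell on HFD and MCD. HFD vehicle libraries held 136.2, 152 and 177 CPM and PERC libraries 73.7, 99.1 and 109, with no overlap. MCD vehicle libraries held 129.4, 152 and 162 CPM and PERC libraries 74.6, 104 and 137.2, where 7 of 8 PERC libraries lay below every vehicle library. Ces1e fell by 0.69 ± 0.09 on HFD (adjusted p = 6.89e-07) and by 0.52 ± 0.09 on MCD (adjusted p = 0.000195). LFD libraries held 110, 139.3 and 170.0 CPM with vehicle and 100.3, 128.1 and 150.1 with PERC, a difference of -0.15 ± 0.09 that was not called (adjusted p = 0.359). Gusb, the beta-glucuronidase gene itself, which was picked for naming after its values were seen, was not called: it gave -0.10 ± 0.11 on LFD, -0.32 ± 0.11 on HFD and -0.36 ± 0.12 on MCD (adjusted p = 0.675, 0.0618 and 0.0581).

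Over the 10 members, groups that did not overlap numbered 2 on HFD (Ces1e and Ces1f, against 2.07% of all genes tested), 2 on MCD (Ces1f and Ces1g, against 1.63%) and 0 on LFD (against 0.301%).

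**Figure D2:**
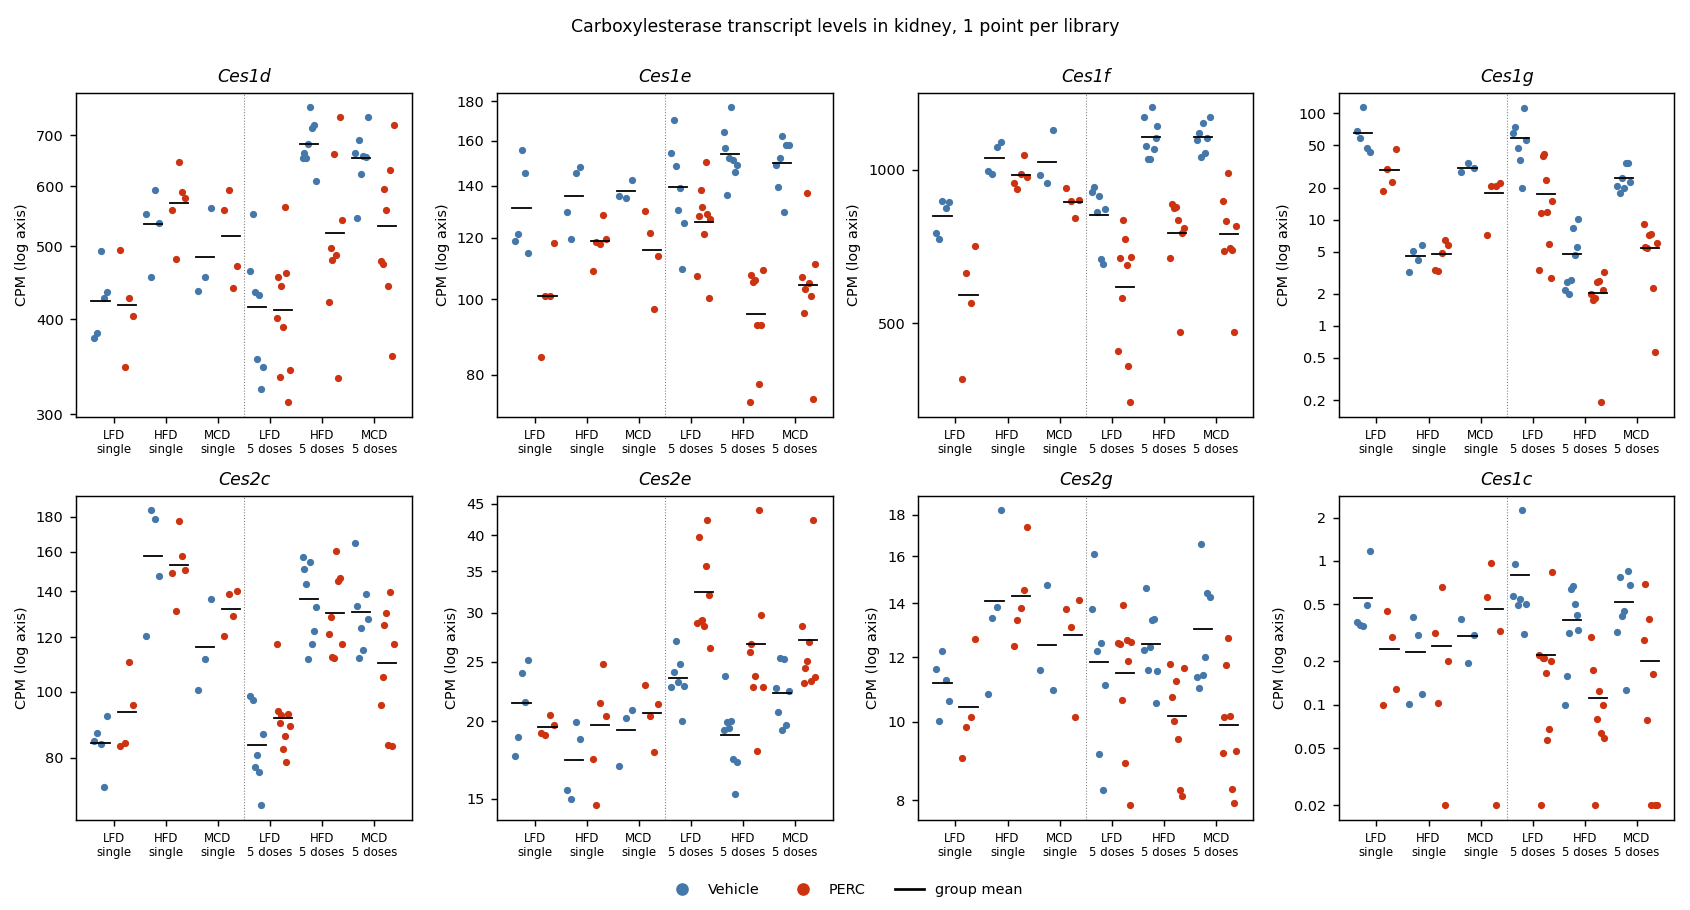
CPM of 8 carboxylesterase genes (log axes that do not start at 0) by diet and regimen, 1 point per library, with a bar for the group mean; single vehicle groups are drawn beside single PERC groups, and Ces1c libraries with no read are drawn at the bottom of the axis. Ces1g is lowest in HFD libraries of both treatments and lies without overlap below vehicle in the MCD PERC libraries after 5 doses (0.567 to 8.99 against 17.8 to 34.4 CPM).

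Ces1d, the triacylglycerol hydrolase, gave a weaker picture. HFD vehicle libraries held 609, 673 and 762 CPM and PERC libraries 335, 492 and 741, and the difference of -0.39 ± 0.13 was called (adjusted p = 0.0413). That call was lost in 11 of 16 fits with 1 library left out, reaching 0.140 without PERC replicate 6. MCD libraries held 545, 658 and 741 CPM with vehicle and 358, 518 and 722 with PERC (-0.30 ± 0.13, adjusted p = 0.214). The LFD difference was -0.01 ± 0.13 (adjusted p = 0.974), with group means of 415 ± 80 and 411 ± 78 CPM.

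Ces1c, the plasma esterase, was measured from few reads, between 0 and 43 per library. LFD vehicle libraries held 0.309, 0.544 and 2.24 CPM and PERC libraries 0, 0.202 and 0.842, and 8 of 9 PERC libraries lay below every vehicle library. The log2 fold change of -1.67 ± 0.48 was called (adjusted p = 0.0242). The highest library of each group was one with liver transcripts, vehicle replicate 5 (Ces1c 2.24, Mup3 7.13 and Alb 86.6 CPM) and PERC replicate 9 (Ces1c 0.842, Mup3 1.78 and Alb 39.5 CPM). The call was lost without vehicle replicate 5 (-1.16, adjusted p = 0.160) and, narrowly, without PERC replicate 7 (adjusted p = 0.0503). With the repeated-regimen libraries over 1 CPM of Mup3 left out together it was kept at -1.81 ± 0.49 (adjusted p = 0.0179). It was also lost with a covariate for adipocyte marker level (-1.14, adjusted p = 0.310). HFD (-1.76 ± 0.64, adjusted p = 0.0753) and MCD (-1.28 ± 0.56, adjusted p = 0.210) gave differences that were not called, though DESeq2 called the first (-1.82, adjusted p = 0.0420). Without MCD PERC replicate 2, edgeR called Ces1c on MCD (-2.07 ± 0.63, adjusted p = 0.0479). That library held the most Ces1c of its group (0.689 CPM), and also the most Mup3 (0.530 CPM) and Alb (41.9 CPM). The part of liver RNA in it was not tested.

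Ces3a, the male liver esterase, and Ces2a were taken out by the low-count filter after 5 doses. Ces3a held 0.178, 0.335 and 1.77 CPM in LFD vehicle and 0, 0.140 and 0.842 CPM in LFD PERC libraries, and the highest values were again vehicle replicate 5 and PERC replicate 9. Ces3a had medians of 0.382 and 0.179 CPM in HFD vehicle and PERC libraries and of 0.357 and 0.249 CPM on MCD, with overlap on all 3 diets. Fitted without the filter, Ces3a gave -1.18 ± 0.54 on LFD, -0.91 ± 0.57 on HFD and -0.85 ± 0.59 on MCD, none of them called (edgeR, adjusted p = 0.250, 0.444 and 0.581). Ces2a was not called either (adjusted p = 0.987, 0.590 and 0.850). Ces2a reached at most 6 reads in a library, so a difference could hardly be detected at this depth.

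Ces2e, an intestinal and hepatic carboxylesterase, was the member that rose. LFD vehicle libraries held 20, 23.2 and 26.9 CPM and PERC libraries 26.3, 29.2 and 42.3, and 8 of 9 PERC libraries lay above every vehicle library. HFD vehicle libraries held 15.3, 19.4 and 23.7 CPM and PERC libraries 17.9, 24.8 and 43.9, with more overlap. The calls were 0.46 ± 0.13 on LFD (adjusted p = 0.0173) and 0.49 ± 0.13 on HFD (adjusted p = 0.00850), and both held in each fit with 1 library left out, up to adjusted p = 0.0499 and 0.0449. MCD libraries held 19.4, 22.4 and 25.3 CPM with vehicle and 23.1, 24.7 and 42.4 with PERC, a difference of 0.29 ± 0.13 that was not called (adjusted p = 0.215).

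Ces2c and Ces2g, the other measured Ces2 members, differed little with PERC. Ces2c was not called on any diet, with 0.13 ± 0.10 on LFD, -0.06 ± 0.10 on HFD and -0.25 ± 0.10 on MCD (adjusted p = 0.514, 0.789 and 0.172). Ces2g, a hydrolase gene of liver and intestine, was called on MCD alone, where vehicle libraries held 10.99, 12.03 and 16.6 CPM and PERC libraries 7.94, 9.66 and 12.7. That difference of -0.39 ± 0.12 (adjusted p = 0.0479) lost its call in 10 of 15 fits with 1 library left out. LFD and HFD gave -0.04 ± 0.12 and -0.30 ± 0.12 (adjusted p = 0.886 and 0.112).

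**Figure D3:**
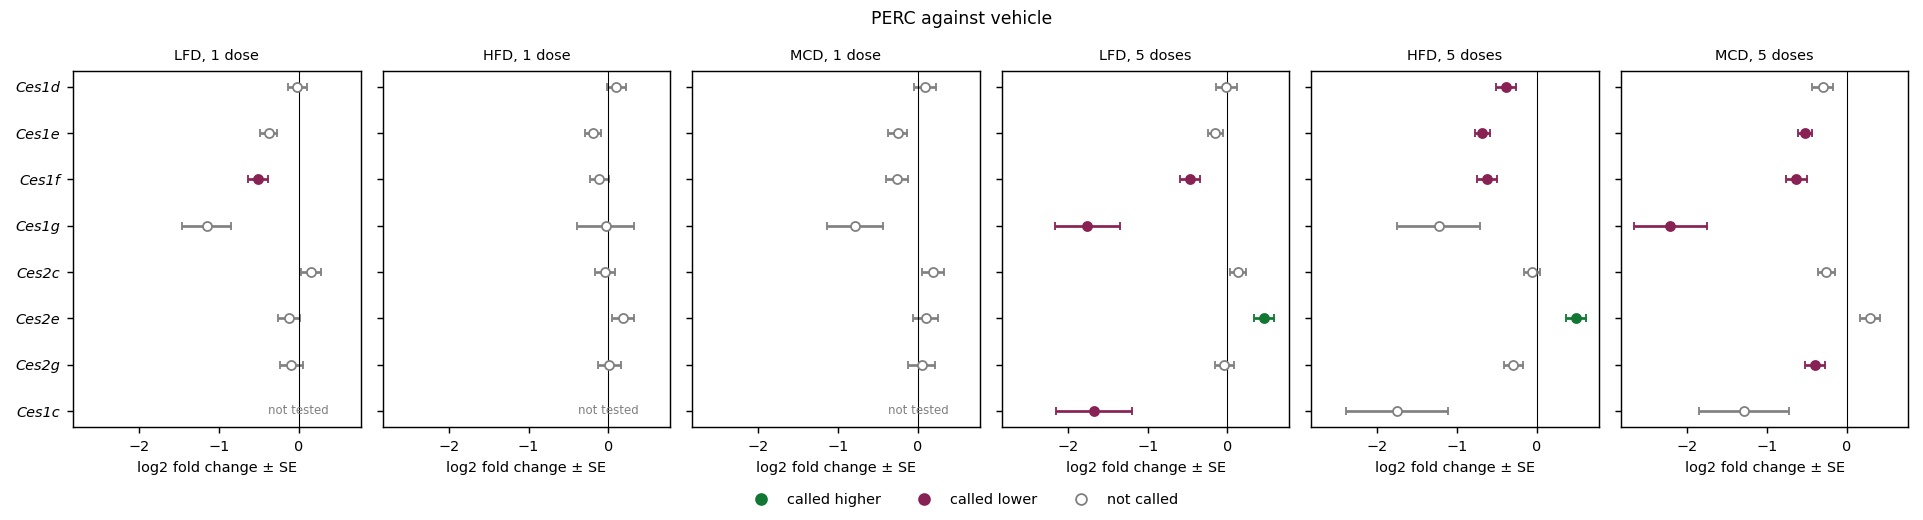
Log2 fold change of PERC against vehicle for 8 carboxylesterase genes, with bars of 1 SE, in the 3 diets after 1 and 5 doses; filled points were called in edgeR's test and open points were not. After 5 doses Ces1f was lower on every diet (-0.47, -0.62 and -0.63), while Ces2e was higher on LFD (0.46) and HFD (0.49).

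A single dose, followed for 24 h, gave 1 call among 7 tested members, on LFD, where 0.749% of 14280 genes were called, 0.532% higher and 0.217% lower. LFD vehicle libraries held 753, 731, 870, 842 and 865 CPM of Ces1f, and PERC libraries 389, 627, 548 and 710. All 4 PERC libraries lay below all 5 vehicle libraries, the only member of 10 with that pattern on LFD (2.02% of genes tested had no overlap). The fall of 0.51 ± 0.12 (adjusted p = 0.0444) was lost in 7 of 9 fits with 1 library left out, and also with the 5 low-depth libraries kept (adjusted p = 0.206).

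Ces1g held 67.6, 58.6, 114, 46.8 and 43.2 CPM in these vehicle libraries and 18.6, 30.2, 22.4 and 46.6 CPM in PERC libraries. The groups overlapped through 1 PERC library, and the difference of -1.16 ± 0.31 was not called (adjusted p = 0.0889). DESeq2 (-1.17, adjusted p = 0.0160) and edgeR with lane as a covariate (-1.26, adjusted p = 0.0215) did call it, as did edgeR with the low-depth libraries kept (-1.17, adjusted p = 0.0470). DESeq2 and the lane fit also called Ces1e (-0.37, adjusted p = 0.0380, and -0.40, adjusted p = 0.0362), for which the main fit gave -0.38 ± 0.11 (adjusted p = 0.116).

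On the other diets 0 of 7 members were called after a single dose. DESeq2 called 0 as well. On HFD 0.007% of genes were called and no member had an unadjusted p under 0.05. Ces1g held 3.24, 5.11, 4.19 and 5.78 CPM in HFD vehicle and 3.33, 3.28, 4.82, 6.45 and 5.72 CPM in HFD PERC libraries (-0.03 ± 0.36, adjusted p of 1). On MCD 0.028% of genes were called and 2 members had an unadjusted p under 0.05. Ces1e, Ces1f and Ces1g each lay lower in all 4 PERC than in all 3 vehicle libraries, a pattern of 3 members beside 5.92% of all genes tested. For Ces1g those values were 7.22, 20.9, 20.7 and 22.2 CPM against 27.9, 34.01 and 30.9 CPM (-0.79 ± 0.35, adjusted p = 0.973). Group sizes of 3 to 5 limit these comparisons. On HFD every member overlapped, where 1.74% of genes did not.

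The largest differences of Ces1g between PERC and vehicle or between diets were those of HFD against LFD vehicle libraries. In vehicle libraries of the single regimen, HFD values of 3.24 to 5.78 CPM lay below all LFD values of 43.2 to 114 CPM. Ces1g was lower on HFD, with a log2 fold change of -3.82 ± 0.36 (adjusted p = 5.27e-06) in that regimen and of -3.60 ± 0.46 (adjusted p = 7.63e-07) in the separate vehicle libraries of the repeated regimen. The second set held 2.01 to 10.03 CPM on HFD and 20.04 to 112 CPM on LFD, again with no overlap. Neither call was lost with any library left out or in any other setting tried. On MCD, vehicle libraries held intermediate levels of 27.9 to 34.01 CPM (single) and 17.8 to 34.4 CPM (repeated). The differences from LFD were -1.10 ± 0.34 (adjusted p = 0.279) and -1.24 ± 0.43 (adjusted p = 0.113), and the second was called when only its 2 groups were fitted (adjusted p = 0.0233).

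Ces1d, Ces1f and Ces2c moved in the opposite direction to Ces1g on HFD. On HFD, 4 of 8 members were called in the repeated vehicle libraries (3 higher, 1 lower), against 6.64% of genes, 3.86% higher and 2.78% lower. On MCD 3 of 8 were called, all higher, against 3.48% of genes, 2.11% higher and 1.37% lower. The 3 higher genes were Ces1d, Ces1f and Ces2c on both diets, which share the LFD vehicle libraries as their control. Not called were Ces1c (-1.01 ± 0.46 on HFD and -0.61 ± 0.45 on MCD) and Ces1e (0.14 ± 0.09 and 0.10 ± 0.10). Ces2e (-0.30 ± 0.13 and -0.08 ± 0.13) and Ces2g (0.07 ± 0.12 and 0.13 ± 0.12) were not called either. With only the HFD and LFD vehicle groups fitted, edgeR called Ces2e lower on HFD (-0.31, adjusted p = 0.0203). LFD libraries held 324, 431 and 551 CPM of Ces1d, HFD libraries 609, 673 and 762 CPM, and MCD libraries 545, 658 and 741 CPM. It was higher by 0.72 ± 0.13 on HFD (adjusted p = 0.000271), with no overlap, and by 0.66 ± 0.14 on MCD (adjusted p = 0.00225), with overlap of 1 MCD library.

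For Ces2c, LFD libraries held 68.2, 80.7 and 98.6 CPM, HFD libraries 112, 138.2 and 157 CPM, and MCD libraries 112, 127.5 and 165 CPM, with no overlap of LFD with either diet. The differences of 0.70 ± 0.10 (adjusted p = 1.05e-05) and 0.65 ± 0.11 (adjusted p = 0.000116) kept their calls in every setting tried. Ces1f was higher by 0.51 ± 0.13 on HFD (adjusted p = 0.0107) and by 0.51 ± 0.14 on MCD (adjusted p = 0.0223), also with no overlap. The MCD call of Ces1f was lost without LFD vehicle replicate 5 or 6 (adjusted p up to 0.0732).

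Marker lists of other cells and states differed between the same vehicle libraries. Of 11 adipocyte markers, 6 were higher on HFD and 4 on MCD, where 3.86% and 2.11% of all genes were called higher. Their summed level was 96.4 to 181 CPM on LFD, 91.6 to 317 on HFD and 110 to 253 on MCD, and their part in the result was tested only by a covariate. With that covariate, Ces1f was no longer called on HFD (0.41, adjusted p = 0.154) or MCD (0.40, adjusted p = 0.281), and Ces1d not on MCD (0.52, adjusted p = 0.0946). Ces1g on HFD, Ces2c on both diets and Ces1d on HFD kept their calls. Of 10 markers of the S3 segment of the proximal tubule, 0 were called by edgeR on either diet (4 on HFD and 3 on MCD had an unadjusted p under 0.05), but their summed level of 12174 to 14937 CPM on LFD lay below the 15582 to 17561 CPM on HFD without overlap, and MCD libraries held 14608 to 16894 CPM. Of 8 tubular injury markers 1, Spp1 (osteopontin), was lower on HFD (-0.67 ± 0.11) and MCD (-0.74 ± 0.12), and the summed level was 1287 to 1779 CPM on LFD, 872 to 1174 on HFD and 912 to 1079 on MCD. Of all genes, 2.78% were called lower on HFD and 1.37% on MCD. The part of S3 cells and of injury in the diet differences was not tested.

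Single-regimen vehicle libraries gave 2 calls of 7 on HFD (1 higher, 1 lower), Ces1g and Ces2c, against 1.64% of genes, 0.875% higher and 0.763% lower. HFD libraries held 121, 184, 179 and 147.5 CPM of Ces2c and LFD libraries 84.6, 86.9, 83.7, 72.5 and 92.3 CPM, without overlap (0.91 ± 0.12, adjusted p = 0.000185). Ces1d (0.34 ± 0.12, adjusted p = 0.198) and Ces1f (0.38 ± 0.12, adjusted p = 0.134) were not called there. On MCD, edgeR and DESeq2 called 0 of 7 members, against 0.476% of genes by edgeR, 0.217% higher and 0.259% lower, and 3 had an unadjusted p under 0.05. Members without overlap numbered 3 on HFD and 3 on MCD in the single regimen (5.69% and 4.47% of genes), and 4 and 2 in the repeated regimen (3.2% and 2.45%).

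**Figure D4:**
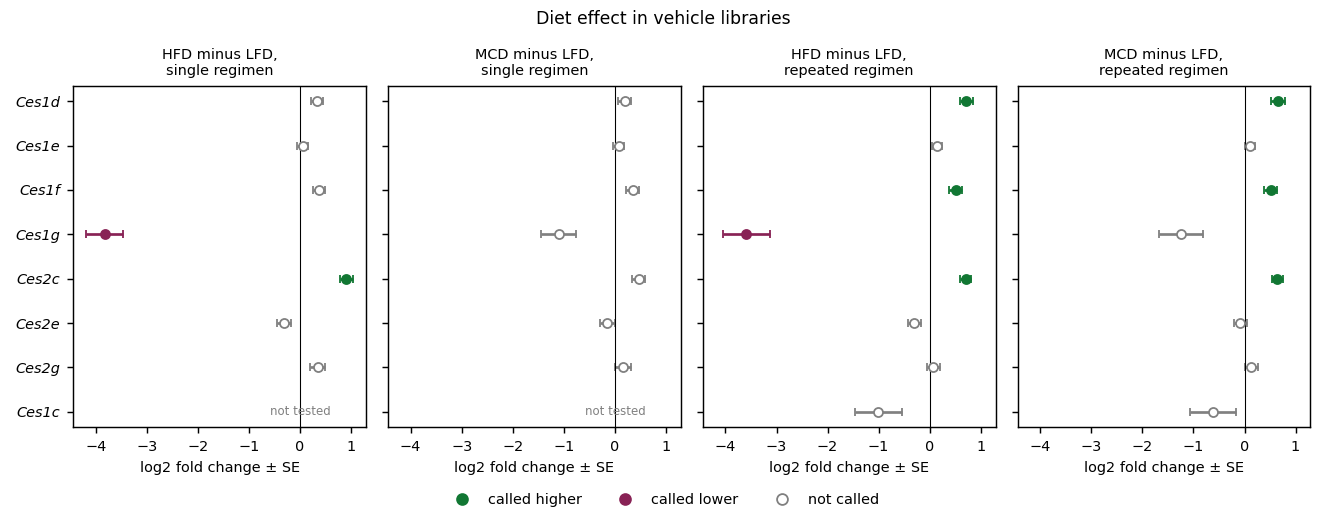
Log2 fold change of HFD and MCD against LFD in vehicle libraries for 8 carboxylesterase genes, with bars of 1 SE, in both regimens; filled points were called in edgeR's test and open points were not. Ces1g was lower on HFD in both regimens (-3.82 and -3.60), and Ces1d, Ces1f and Ces2c were higher on HFD and MCD in the repeated regimen.

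Whether PERC acted differently between diets was tested on the difference itself. Neither edgeR nor DESeq2 called a member for HFD or MCD against LFD, in the single regimen (0.0% of genes called in both) or after 5 doses (0.0137% and 0.0%). Unadjusted p-values under 0.05 numbered 2 and 0 members in the single and 2 and 3 in the repeated regimen. The smallest was that of Ces1e on HFD after 5 doses, where the PERC effect minus that on LFD was -0.54 ± 0.13 (unadjusted p = 0.000133, adjusted p = 0.243). For Ces1g the difference between the HFD and LFD effects was 0.52 ± 0.67 after 5 doses (adjusted p = 0.945), so the call on LFD and its absence on HFD do not show that the effects differ. The effects of 5 doses and of a single dose were also compared, and neither tool called a member on LFD (0.0132% of genes), HFD (0.132%, 0.106% higher and 0.0264% lower) or MCD (0.0132%), and 1, 3 and 3 members with an unadjusted p under 0.05. Ces2e on LFD differed by 0.58 ± 0.20 (adjusted p = 0.858) and Ces1g on MCD by -1.44 ± 0.70 (adjusted p = 0.594).

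Of the other 9 Ces symbols, Ces2b and Ces2h passed the filter on low counts. Ces2b held 6.55, 9.25 and 16.9 CPM in HFD vehicle and 1.65, 5.75 and 7.96 CPM in HFD PERC libraries after 5 doses, with overlap. It fell by 0.86 ± 0.25 on HFD (adjusted p = 0.0223) and by 1.25 ± 0.26 on MCD (adjusted p = 0.00180). Ces2h fell by 0.70 ± 0.22 on HFD (adjusted p = 0.0326) and by 0.73 ± 0.22 on MCD (adjusted p = 0.0416). The Ces2h calls were lost in 7 of 16 and 12 of 15 fits with 1 library left out, and the HFD call of Ces2b in 3 of 16.

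A list of 25 other ester hydrolases, of which 24 were tested, moved in both directions after 5 doses. On LFD 3 rose and none fell, on HFD 5 rose and 3 fell, and on MCD 3 rose and 2 fell, with medians of -0.04, 0.03 and -0.01. Mgll, the monoacylglycerol lipase, rose on all 3 diets (0.49 ± 0.12, 1.02 ± 0.12 and 0.91 ± 0.12), and Lipe, the hormone-sensitive lipase, on HFD (0.89 ± 0.18) and MCD (0.69 ± 0.19). Faah, the fatty acid amide hydrolase, fell on MCD (-0.22 ± 0.06). In the vehicle libraries of the repeated regimen, Faah and Pon2 (paraoxonase 2) were higher on both HFD (0.38 ± 0.06 and 0.40 ± 0.07) and MCD (0.34 ± 0.07 and 0.47 ± 0.07), as were Ces1d, Ces1f and Ces2c. In the single regimen edgeR called 0 of the 24 on either diet, where 1.64% of all genes were called on HFD and 0.476% on MCD. Of the 24, 4 on HFD and 1 on MCD had an unadjusted p under 0.05. Of Ces1d, Ces1f and Ces2c, edgeR called Ces2c alone, on HFD.

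Several liver carboxylesterases are targets of the xenobiotic receptors CAR and PXR, and 16 of 24 listed response genes were tested. On LFD 3 of them rose, on HFD 4 and on MCD 4 after 5 doses, none fell and the rest were not called. Of all genes tested, 4.48%, 4.97% and 2.72% were called higher. Aldh1a1, a retinal dehydrogenase gene, rose by 2.21 ± 0.36, 2.75 ± 0.36 and 2.49 ± 0.37 in these diets, and Nr1i3, the CAR gene, by 1.86 ± 0.35 on LFD and 1.54 ± 0.33 on MCD. Abcc3, an organic anion exporter, rose by 0.90 ± 0.21 on HFD. Of 11 partners and neighbours in the endoplasmic reticulum, Mttp, the lipid transfer protein gene, rose on LFD and HFD (0.40 ± 0.12 and 0.41 ± 0.12), and Plin2, the lipid droplet coat gene, on HFD and MCD (0.87 ± 0.17 and 0.69 ± 0.18). Cideb, a lipid droplet protein gene, fell on HFD and MCD (-0.40 ± 0.13 and -0.45 ± 0.13).

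A minority of proximal tubule markers fell beside the members. Of 10 markers of its first segments, S1 to S2, 1 fell on LFD, 0 on HFD and 1 on MCD after 5 doses, and of the 10 markers of the last segment, S3, 2 fell on LFD, 3 on HFD and 2 on MCD. Of all genes, 2.43% were called lower on LFD, 4.22% on HFD and 2.38% on MCD. The other 7 or 8 S3 markers were not called, and 5 of the S1 to S2 markers had an unadjusted p under 0.05 on HFD (edgeR). Slc22a7, an organic anion transporter of S3, fell on all 3 diets (-2.0 ± 0.59, -2.32 ± 0.62 and -3.14 ± 0.66). The summed S3 level was 15582 to 17561 CPM in HFD vehicle and 9209 to 16980 in HFD PERC libraries, 14608 to 16894 and 10856 to 15602 on MCD, and 12174 to 14937 and 9097 to 13985 on LFD. The summed S1 to S2 level overlapped between vehicle and PERC libraries on all 3 diets. The part of proximal tubule cells in the lower Ces1 levels was not tested. Adipocyte markers were higher with PERC in 6 of 11 cases on LFD, 2 on HFD and 0 on MCD. The shares of all genes called higher were 4.48%, 4.97% and 2.72%. With the adipocyte covariate, the falls of Ces1e, Ces1f and Ces1g kept their calls after 5 doses.

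Over the 47 libraries of the repeated regimen, which share diets, treatments and lanes, the genes most like each member in log2 CPM were ranked by Pearson's r, as a description. Ces1f had 179 genes above r = 0.8, led by Acss2 (acetyl-CoA synthetase, 0.957, and 0.914 within groups), Ugt2b38 and Pzp. For Ces1e the nearest were Aoah (0.92), F13b and Cfb, for Ces1g Apom (apolipoprotein M, 0.893), Cfi and Fam151a, and for Ces1d Aco1 (0.873), 4833439L19Rik and Mgam. Ces2c was nearest to Sugct (0.832), Cryz and Prdx6, Ces2e to Ugt1a10 (0.784), Psat1 and Cbr1, Ces2g to Manba (0.734), Aoah and Xpnpep2, and Ces1c to Grid1 (0.653), Npm3 and Slc26a1. Among members, Ces1d and Ces1f had r = 0.726 (0.47 within groups) and Ces1e and Ces2g r = 0.704 (0.592 within groups). Within groups, r was 0.724 for Ces1f and Ces1g (0.262 over the 47 libraries) and 0.711 for Ces1e and Ces1f (0.649 over the 47 libraries). Ces1f and Ces2e ran in opposite directions (r = -0.745, and -0.456 within groups).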

How the data were processed

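The authors deposited, for each library, whole-number counts by gene symbol, from pulverized mouse kidney sequenced with a stranded messenger RNA kit, per the labels' protocols. The submitters' processing notes list, with no role or order, TopHat2 2.0.13, HTSeq, DESeq2, Trimmomatic, bcl2fastq 2.17.1.14 and the build GRCm38 (mm10). The annotation and strand setting are not given in the sources used here. Of 78 samples, 77 had a file and 72 were used, with 8556278 to 42022166 counts in genes. Reads assigned to no gene stayed out: 16.1% to 36.5% per library fell in no feature, and 6.91% to 30.9% aligned to several places.

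Counts were scaled by TMM and tested with edgeR 4.0.16 (R 4.3.3), quasi-likelihood, filterByExpr, 1 mean per group, each regimen fitted over its 6 groups (14280 and 14614 genes) and regimens compared in 1 fit over 12 groups (15139 genes). Adjusted p-values (Benjamini-Hochberg) run over all genes of a comparison, with 17 comparisons. Each SE is the fold change (log2) over the root of its F statistic. Correlations used log2 CPM with a prior count of 2. The steps were tested on simulated data. Alternatives were DESeq2 1.42.0, other size factors, no filter, covariates and leaving out libraries. The members and gene lists were chosen with earlier results of these data known. The text names all members and other Ces genes, at most 3 called genes per list and comparison (smallest p), and the 3 genes most like each tested member.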

Additional observations from a re-analysis of the deposited data

Results flagged for a closer look

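For the members that passed the low-count filter, 6 values stood apart from their group by Dixon's criterion, over 83 pairs of gene and group. Ces2a, Ces3a, Ces1c in the single regimen and the MCD single vehicle group were not looked at. Chance flags about 1 in 20 groups.

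For Ces1c, LFD repeated vehicle replicate 5 stood highest at 2.238 CPM (next 0.9497) and LFD repeated PERC replicate 9 at 0.8422 CPM (next 0.2235). Both libraries were also the highest of their group for the liver genes Mup3 (7.13 and 1.78 CPM), Cps1 (4.95 and 0.936 CPM) and Alb (86.6 and 39.5 CPM), and for Ces3a (1.77 and 0.842 CPM). The part of liver RNA in these values was not tested.

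For Ces2e, HFD repeated PERC replicate 6 stood highest at 43.91 CPM (next 29.73) and MCD repeated PERC replicate 7 at 42.35 CPM (next 28.53). The same 2 libraries held the lowest Ces1g of their groups (0.190 and 0.567 CPM), the lowest Ces1f (481 and 481 CPM), the lowest Kap, a proximal tubule gene that depends on androgen (4908 and 4121 CPM), and the highest Lcn2, an injury marker (35.2 and 12.5 CPM). Havcr1, also an injury marker, was not highest in either library. It held 7.10 CPM in the HFD library, where its group ran from 6.56 to 106 CPM. In the MCD library it held 19.6 CPM, where its group ran from 1.71 to 48.4 CPM. The HFD difference of Ces2e without replicate 6 was 0.35 (edgeR, adjusted p = 0.0449).

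Ces1g in MCD single PERC replicate 1 stood lowest at 7.22 CPM (next 20.69). Ces2c in LFD repeated PERC replicate 1 stood highest at 117.5 CPM (next 93.81).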

How the results depend on the processing

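No paired analysis was possible because the labels hold no replicate numbers that could pair libraries. Over single genes, 3759 values under other settings stayed on their side of the threshold, 69 lost a call, 21 gained one and 0 reversed. A change of sign where neither value was called was counted among the 3759 and not as a reversal. After a single dose on LFD the members called, 1 as reported, were 3 with DESeq2 and with lane as a covariate. They were 0 with the adipocyte covariate and with only the groups compared. They were also 0 without the single-regimen libraries over 1 CPM of Mup3 (an alternative chosen after seeing the data). They ran from 0 to 3 with 1 library left out. With low-depth libraries kept the count stayed 1, but the gene was Ces1g in place of Ces1f. After 5 doses on LFD the count went from 4 to 1 with only the groups compared, and for MCD against LFD vehicle from 3 to 1 with the adipocyte covariate. With 1 library left out, 3 to 4 members were called in each PERC comparison after 5 doses, 4 to 4 for HFD and 2 to 3 for MCD vehicle libraries. Counts of 0 stayed 0. The cause of these changes was not tested. Ces1c, Ces2a and Ces3a are limited by depth.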
